A study of Saccharomyces cerevisiae with 14 samples.

Results

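Ribosomal proteins of the large (60S) subunit are named RPL in budding yeast (Saccharomyces cerevisiae), and many of their genes carry an intron close to the start of the reading frame. The members described here are the RPL genes with an intron in the authors' table of spliced fractions, leaving out RPL7A, RPL7B, RPL16A, RPL16B, RPL22A, RPL22B, RPL30, RPL37A and RPL37B. They number 43 of the 187 introns in that table. Of these, 40 form 20 pairs of duplicated genes, an A and a B copy that encode nearly the same protein, among them RPL2, RPL6, RPL13, RPL14, RPL17, RPL19, RPL20, RPL21, RPL23, RPL26, RPL27, RPL31, RPL33, RPL34, RPL35, RPL36, RPL40, RPL42 and RPL43. The other 3, RPL25, RPL28 and RPL39, are single-copy genes. Members were chosen by gene name, with earlier results of these data known.

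The strain in all 14 samples was W303U (mating type MATa), which carries the alleles can1-100 and ade2-1 together with leu2-3, 112 and his3-11, 15 and with trp 1-1, and it was grown in SD medium lacking uracil and leucine to an OD600 of 0.8 at 30 °C. The 3 labelled groups received 500 µM 4-thiouracil (4tU), a thiol-bearing form of uracil that enters RNA as it is made, for 1.5, 2.5 or 5 min, and thiolated RNA was then biotinylated and captured on streptavidin beads (n = 3 each, timecourses 1, 2 and 3). Total RNA depleted of rRNA came from the same timecourses (n = 3), and 2 libraries were taken through the capture without label. The labels do not say whether each timecourse was a separate culture, so the p-values measure the spread between these libraries.

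An intron is removed by the spliceosome in a pair of steps: the 5′ splice site is first attacked by an adenosine at the branch point, and the 3′ splice site is then joined to the freed exon. RPL transcripts make up a large part of the splicing work of a growing yeast cell, because few yeast genes have introns but those of ribosomal proteins are transcribed very often. RNA caught soon after it was made still holds introns, and the share that does falls as labelling goes on.

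The libraries held 3618310 to 65173280 counts, and members took 0.353% to 1.14% of them. Behind each member's spliced fraction stood 228 to 37226 reads in a library. Total RNA library 3 stood apart for several copies: RPL31A had 48.7 CPM there (a count scaled to a fixed library total after TMM normalisation) against 370 and 591 in libraries 1 and 2, and RPL36A 19.9 against 108 and 144. Several results against total RNA are therefore also given without it.

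The splice sites of the members were close to the yeast consensus. In 36 of the 42 introns with deposited site sequences the intron opened with GTATGT, and in 41 of 42 the branch point lay in TACTAAC; among all 306 introns of the authors' feature table the shares were 73.2% and 81.7%. The searches looked at the annotated site on the strand that reads like the RNA, and the 2 motifs do not overlap. The other openings were GTACGT in RPL27A and RPL27B, GTATGC in RPL40A and RPL43B, GTATGA in RPL43A and GTGAGT in RPL20A, and the branch point of RPL19A read TAATAAC. RPL33B was not used here for site or intron features. Introns were 147 to 561 bases long, with a median of 414.5, against 99 for the 204 introns of genes outside the RPL and RPS families in the same table. The coding sequences of the copies of a pair were 89.4% to 99.2% identical by global alignment of the R64 reference, while their introns were 27.3% to 63.0% identical (19 pairs).

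The sites of several pairs whose copies differed in unspliced fraction, and of 2 members with high fractions, RPL18B and RPL28, are shown for comparison. They were read from the authors' table and the R64 genome, 5′ to 3′ on the strand that reads like the RNA. Each first line holds 4 exon bases and the first 8 intron bases, with the 5′ site in capitals, and each second line runs from just before the branch point to the end of the intron, with the branch motif and the last 3 bases in capitals.
RPL31A 5′ site (chrIV:322283-322703, + strand): aagaGTATGTga
RPL31A branch point to 3′ end: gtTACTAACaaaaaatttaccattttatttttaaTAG
RPL31B 5′ site (chrXII:931350-931698, − strand): aagaGTATGTcg
RPL31B branch point to 3′ end: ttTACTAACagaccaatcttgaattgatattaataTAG
RPL43A 5′ site (chrXVI:654168-654570, + strand): aaatGTATGAta
RPL43A branch point to 3′ end: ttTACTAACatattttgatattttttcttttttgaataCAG
RPL43B 5′ site (chrX:608307-608581, + strand): aaatGTATGCat
RPL43B branch point to 3′ end: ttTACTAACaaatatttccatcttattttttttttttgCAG
RPL18B 5′ site (chrXIV:64019-64450, − strand): gctcGTATGTat
RPL18B branch point to 3′ end: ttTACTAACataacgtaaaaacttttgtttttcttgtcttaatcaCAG
RPL20A 5′ site (chrXIII:753743-754219, − strand): aaaaGTGAGTaa
RPL20A branch point to 3′ end: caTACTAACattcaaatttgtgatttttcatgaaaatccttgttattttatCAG
RPL20B 5′ site (chrXV:900768-901193, − strand): aaaaGTATGTaa
RPL20B branch point to 3′ end: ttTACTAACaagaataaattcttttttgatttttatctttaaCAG
RPL28 5′ site (chrVII:311016-311526, + strand): tcagGTATGTag
RPL28 branch point to 3′ end: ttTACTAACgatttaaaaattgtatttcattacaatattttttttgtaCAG

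The intron of RPL2A, the shortest of the members and the most unspliced at 1.5 min, is shown whole, with its 5′ site, branch motif and last 3 bases in capitals.
RPL2A intron (chrVI:221268-221414, − strand, 147 bases): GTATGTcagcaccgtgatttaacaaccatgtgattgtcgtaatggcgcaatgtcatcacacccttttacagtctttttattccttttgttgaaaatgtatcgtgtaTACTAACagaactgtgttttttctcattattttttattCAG

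The unspliced fraction (1 minus the authors' spliced fraction) fell during labelling in nearly all members, but they started from very different levels. The deposited ratio was read as the spliced fraction because it rises with labelling time, so the common direction follows from that reading. In the authors' segment values, 1 per group, the median ratio of intron to second exon over 42 members was 0.530, 0.260 and 0.137 at 1.5, 2.5 and 5 min. At 1.5 min the members' means ran from 0.055 in RPL31A to 0.918 in RPL2A, with a median of 0.321. The median of the means came to 0.160 after 2.5 min and 0.0923 after 5 min, and the deposited total RNA value, 1 per intron with no replicates, had a median of 0.017. At 1.5 min 11 members were over 0.5 and 2 under 0.1; at 5 min 2 were over 0.5 and 22 under 0.1. All 43 means at 5 min still lay above the member's own total RNA value. The order of members at 1.5 min was alike in the 3 timecourses, with Spearman's rho from 0.899 to 0.913 between them across the 43 introns, which share a library and its depth.

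**Figure D1:**
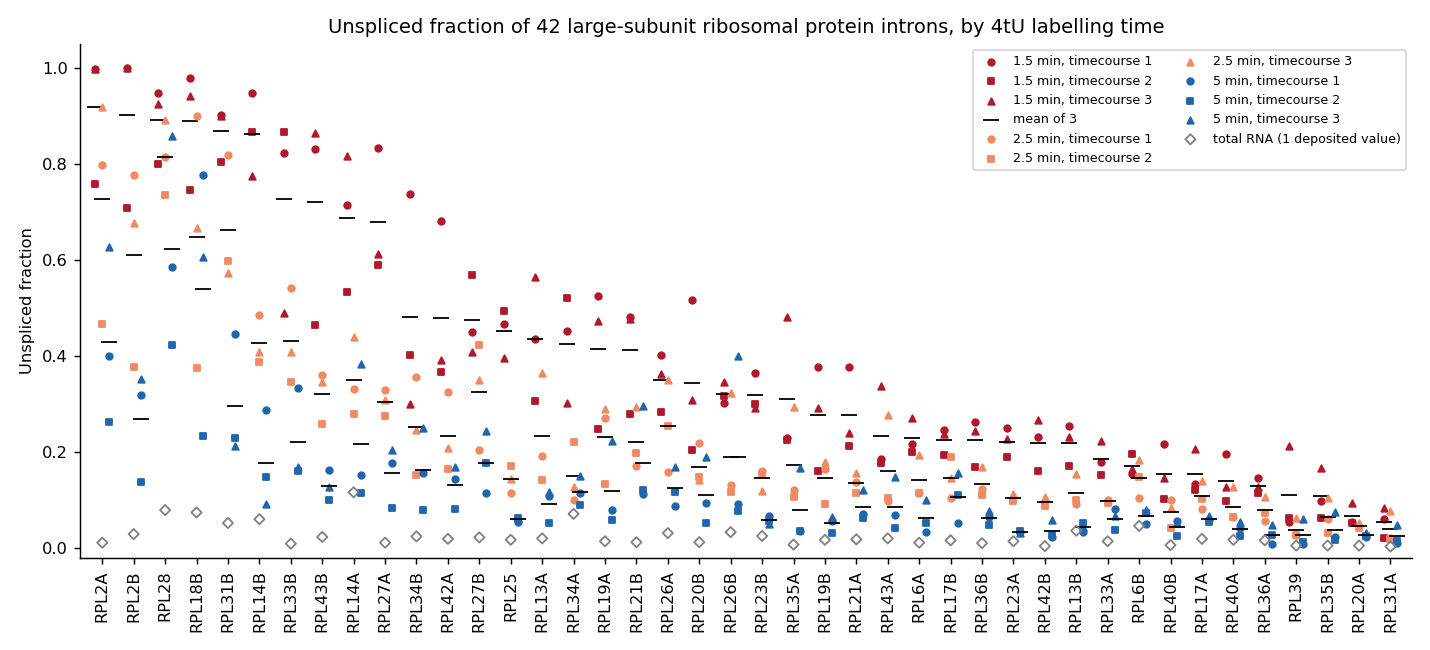
Unspliced fraction (y axis) of 42 of the 43 members (x axis, ordered by the mean at 1.5 min) in every 4tU library; colours mark the labelling time, symbols the timecourse, black bars the mean of 3, and grey diamonds the single deposited total RNA value. Means at 1.5 min run from 0.055 in RPL31A to 0.918 in RPL2A, and RPL28 and RPL18B are the members still above 0.5 at 5 min.

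RPL introns stood well below other introns at each time and close to those of small-subunit (RPS) genes. In timecourses 1, 2 and 3 the members' median unspliced fraction at 1.5 min was 0.378, 0.248 and 0.308. The RPS median (35 introns) was 0.382, 0.207 and 0.351, above the members in timecourses 1 and 3 and below them in timecourse 2. The median of the 102 introns outside the RPL and RPS families was 0.843, 0.683 and 0.796, above the members in each library. The same held at 5 min, where members had medians of 0.079, 0.062 and 0.128 and the other introns 0.536, 0.361 and 0.510; these medians were not tested against each other.

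The 4 most unspliced members at 1.5 min were RPL2A and RPL2B, which encode a protein close to the peptidyl transferase centre, RPL28, the gene in which cycloheximide resistance mutations arise, and RPL18B. RPL2A was unspliced at 0.998, 0.759 and 0.997 in timecourses 1, 2 and 3 (mean 0.918 ± 0.138, SD, n = 3), and RPL2B at 1.000, 0.708 and 1.000 (0.903 ± 0.169). RPL28 stood at 0.947, 0.801 and 0.926 (0.891 ± 0.0789) and RPL18B at 0.979, 0.746 and 0.942 (0.889 ± 0.125). Timecourse 2 was the lowest for all 4, and their means differed by less than the spread between timecourses. In the authors' segment table, which gives 1 value per group, the intron of RPL2B had 2.23 times the signal of its second exon at 1.5 min and that of RPL28 1.64 times. RPL2A went against its fraction there, with an intron at 0.427 times its second exon. Some members with lower fractions had higher ratios than RPL2B: RPL14A at 6.02, RPL14B at 3.84 and RPL31B at 2.90. RPL35A, with a mean fraction of 0.311, stood at 1.74, above RPL28. Across 42 members the same segment ratio and the unspliced fraction had a rho of 0.81 (Pearson's r 0.62), both from the same libraries.

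The 4 least unspliced members were RPL31A, RPL20A, RPL35B and RPL39. RPL31A and RPL20A were mostly spliced by 1.5 min, with unspliced fractions of 0.061, 0.021 and 0.083 for RPL31A and 0.054, 0.053 and 0.093 for RPL20A. RPL35B, for a protein near the mouth of the peptide exit tunnel, stood at 0.097, 0.062 and 0.167, and RPL39, for a small protein lining that tunnel, at 0.054, 0.063 and 0.212. Timecourse 3 was the highest for each of them. RPL20A had the lowest 5′ site score of the 42 introns, 32.3 on the authors' scale, and the 5′ site GTGAGT, which 2 of all 306 introns hold.

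From 1.5 to 5 min the unspliced fraction fell in 31 of 43 members (limma with Benjamini-Hochberg adjustment over all 187 introns, adjusted p below 0.05), and none rose. In all introns 42.2% fell and 1.07% rose. The members' median change was −0.231, against −0.212 over all introns, −0.214 in the 35 RPS introns (22 called lower) and −0.202 in the 102 other introns (25 called lower). In 42 of 43 members the fraction was lower at 5 min than at 1.5 min within every timecourse, and in 36 of 43 all 5 min libraries lay below all 1.5 min libraries, against 59.9% of all introns. With the timecourse as a replicate block 39 members were called. For this fit and the other alternative fits below, the share over all introns, RP pairs or features is not given, except for library-size scaling. The shares of the main fits do not apply to those counts. Leaving out timecourse 1, 2 or 3 left 4, 17 and 18 calls.

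The steepest falls were in RPL14B, RPL2B and RPL43B. RPL14B went from 0.947, 0.866 and 0.776 at 1.5 min to 0.288, 0.148 and 0.092 at 5 min, with no overlap, and fell by 0.687 ± 0.0649 (SE, limma adjusted p = 0.000607). RPL2B reached 0.318, 0.137 and 0.353 at 5 min and fell by 0.633 ± 0.126 (adjusted p = 0.00938). RPL43B, for a zinc-binding protein, went from 0.832, 0.465 and 0.864 to 0.162, 0.100 and 0.128 and fell by 0.590 ± 0.101 (adjusted p = 0.00558). The calls of RPL2B and RPL43B were lost without timecourse 1 (adjusted p = 0.116 and 0.114) and without timecourse 3 (0.0664 and 0.0567), with changes of −0.517 or lower; that of RPL14B was kept in both.

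The smallest changes were in RPL31A, RPL20A and RPL35B, the 3 lowest members at 1.5 min. RPL31A changed by −0.0307 ± 0.032 (SE, limma adjusted p = 0.433), RPL20A by −0.0407 ± 0.026 (adjusted p = 0.219) and RPL35B by −0.0707 ± 0.0388 (adjusted p = 0.164; 0.045 with the replicate block). As ratios these were not small: the 1.5 min mean was 2.26 times the 5 min mean in RPL31A, 2.56 times in RPL20A and 2.86 times in RPL35B, against 4.90 times in RPL14B.

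Of the single-copy genes, RPL25 passed the test and RPL28 and RPL39 did not. RPL25, whose protein binds at the exit tunnel and is a docking site for factors that meet new proteins, was unspliced at 0.467, 0.493 and 0.396 at 1.5 min, then at 0.114, 0.171 and 0.143 after 2.5 min, and lastly at 0.055, 0.062 and 0.063 after 5 min. It fell by 0.392 ± 0.0343 from 1.5 to 5 min (SE, limma adjusted p = 0.000533), and its groups did not overlap. RPL28 stood at 0.815, 0.736 and 0.892 after 2.5 min, then 0.585, 0.423 and 0.859 after 5 min. Its change of −0.269 ± 0.107 did not pass the test (adjusted p = 0.0774), and its groups overlapped through timecourse 3; with the replicate block it passed (adjusted p = 0.0239), and also without timecourse 3 (adjusted p = 0.0418). RPL39 changed by −0.0827 ± 0.047 (adjusted p = 0.172). RPL18B likewise stayed high, at 0.777, 0.234 and 0.606 at 5 min (change −0.35 ± 0.173, adjusted p = 0.131; 0.00916 with the block).

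By the median over members, the fall from 1.5 to 2.5 min was larger than that from 2.5 to 5 min. In some members the larger fall came after 2.5 min, RPL2A, RPL2B, RPL28 and RPL31B among them. Between 1.5 and 2.5 min the members' median change was −0.138, and between 2.5 and 5 min −0.0793. The second interval is the longer, and changes per minute were not compared. In the first interval 5 members passed the limma test (RPL14B, RPL23B, RPL25, RPL27A and RPL34A, all lower), against 4.81% of all introns, and 12 with the replicate block. The call count was 0, 1 and 0 without timecourse 1, 2 and 3. In the second interval the limma test called none of the 43 and 0% of all introns, with 8 members at an unadjusted p below 0.05; the fit with the block called 5 members, RPL2A, RPL2B, RPL14B and RPL31B among them.

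The copies of a pair, though nearly the same in coding sequence, differed in unspliced fraction in 9 of 20 pairs at 1.5 min (limma on the A minus B difference within each library, adjusted over 40 RP pairs), against 52.5% of all RP pairs. The B copy was the more unspliced in 5 (RPL20, RPL31, RPL33 and RPL43 among them) and the A copy in 4 (RPL13, RPL19, RPL35 and RPL42). The sign was the same in all 3 libraries in 16 of the 20 pairs, the 9 called ones included. The size of the difference had a median of 0.157 at 1.5 min, 0.0948 at 2.5 min and 0.048 at 5 min over the 20 pairs, and was larger at 1.5 than at 5 min in 17 of them. The other 11 pairs had differences of 0.015 to 0.203 in size that did not pass the test. Leaving out timecourse 1, 2 or 3 left 4, 3 and 8 calls; RPL31 and RPL43 were called each time.

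**Figure D2:**
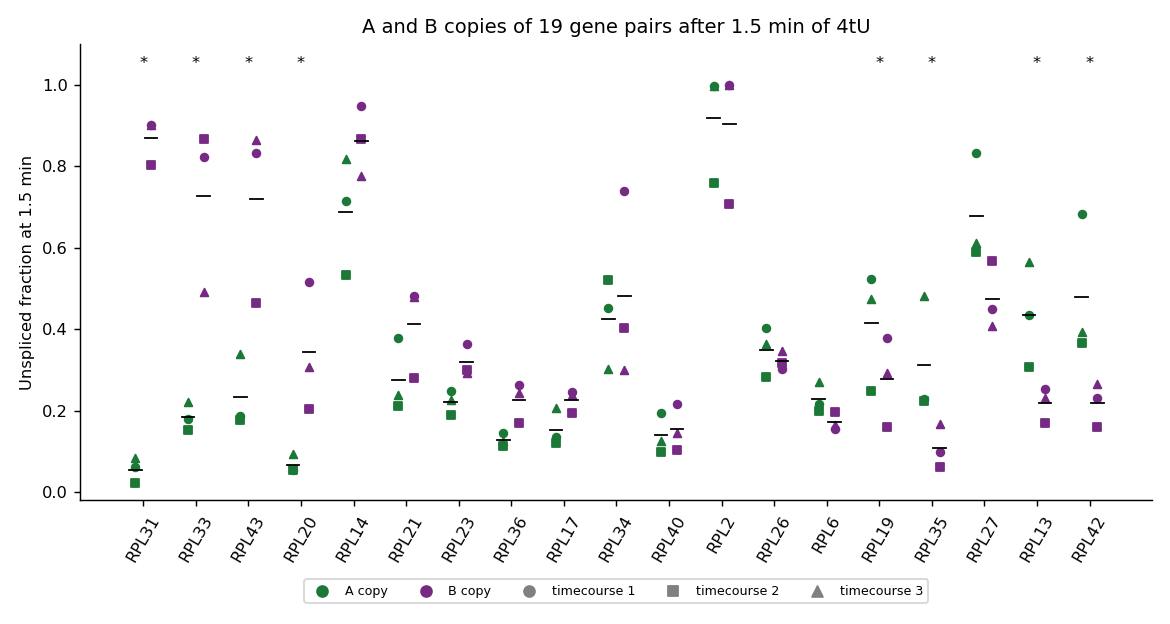
Unspliced fraction at 1.5 min (y axis) of the A copy (green) and the B copy (purple) of 19 gene pairs (x axis, ordered by A minus B); symbols mark the timecourse, bars the mean of 3, and an asterisk a pair with an adjusted p below 0.05. The copies of RPL31 are the farthest apart, at means of 0.055 and 0.869, and those of RPL40 and RPL2 are close together.

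RPL31 showed the widest gap. Against the 0.061, 0.021 and 0.083 of RPL31A at 1.5 min, RPL31B was unspliced at 0.902, 0.804 and 0.901, so A minus B was −0.814 ± 0.0342 (SE, limma adjusted p = 0.000248). Their sites, printed above, share the 5′ site GTATGT and the branch motif, and RPL31B has the shorter intron, 349 against 421 bases. At 5 min RPL31A stood at 0.010, 0.015 and 0.048 and RPL31B at 0.446, 0.229 and 0.212.

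RPL33 and RPL43 had the same direction. RPL33A was at 0.180, 0.151 and 0.222 at 1.5 min and RPL33B at 0.823, 0.867 and 0.490, a difference of −0.542 ± 0.101 (adjusted p = 0.0153; 0.147 without timecourse 2). RPL43A was at 0.186, 0.177 and 0.338 and RPL43B at 0.832, 0.465 and 0.864, a difference of −0.487 ± 0.0793 (adjusted p = 0.012). In both pairs every B library lay above every A library.

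The copies of RPL20 lay closer together. RPL20B stood at 0.516, 0.204 and 0.308 at 1.5 min, above every RPL20A library, a difference A minus B of −0.276 ± 0.0728 (SE, limma adjusted p = 0.0393; 0.205 without timecourse 1 and 0.147 without timecourse 2). RPL20B has the consensus 5′ site GTATGT and a 5′ site score of 96.2, the highest of the 42, while the copy with the lower score, RPL20A, was the less unspliced.

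The A copy was the more unspliced in RPL42, which encodes a protein at the exit site for tRNA, and in RPL13, RPL35 and RPL19. RPL42A was at 0.682, 0.366 and 0.392 and RPL42B at 0.232, 0.160 and 0.266, a difference of 0.261 ± 0.0744 (adjusted p = 0.0434). RPL13A was at 0.435, 0.306 and 0.565 and RPL13B at 0.254, 0.170 and 0.231 (0.217 ± 0.0523, adjusted p = 0.0345). RPL35A was at 0.229, 0.224 and 0.481, above the RPL35B values of its own timecourse each time (0.203 ± 0.0504, adjusted p = 0.0356). None of these 3 calls was kept without timecourse 1 (adjusted p = 0.264, 0.0868 and 0.0868) or without timecourse 2 (0.207, 0.125 and 0.147), and those of RPL13 and RPL35 were also lost without timecourse 3 (0.0954 and 0.124). The copies of RPL13 and RPL42 did not overlap, nor did those of RPL35.

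The A minus B difference shrank in absolute size as labelling went on in some pairs, while the fractions of both copies fell. Ratios between copies were not tested. The means of RPL31A and RPL31B were 0.055 and 0.869 at 1.5 min and 0.0243 and 0.296 at 5 min. Those of RPL43A and RPL43B were 0.234 and 0.720, then 0.086 and 0.130. At 5 min the copies of RPL31 and of RPL33 still did not overlap, while those of RPL43 did. At 2.5 min RPL31 (A minus B −0.624, adjusted p = 0.000986) and RPL33 (−0.334, adjusted p = 0.00323) were the 2 pairs called of 20, against 27.5% of all RP pairs, and at 5 min none was called, against 7.5%, with 5 at an unadjusted p below 0.05. On the arcsine square root scale the same limma test called 7 pairs at 2.5 min and 6 at 5 min. The test of the change itself, 5 min difference minus 1.5 min difference, called 3 of 20 pairs against 27.5% of all RP pairs: RPL31 (−0.814 to −0.271), RPL43 (−0.487 to −0.044) and RPL33 (−0.542 to −0.159). With the replicate block 9 pairs were called, and 1, 1 and 3 without timecourse 1, 2 and 3.

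**Figure D3:**
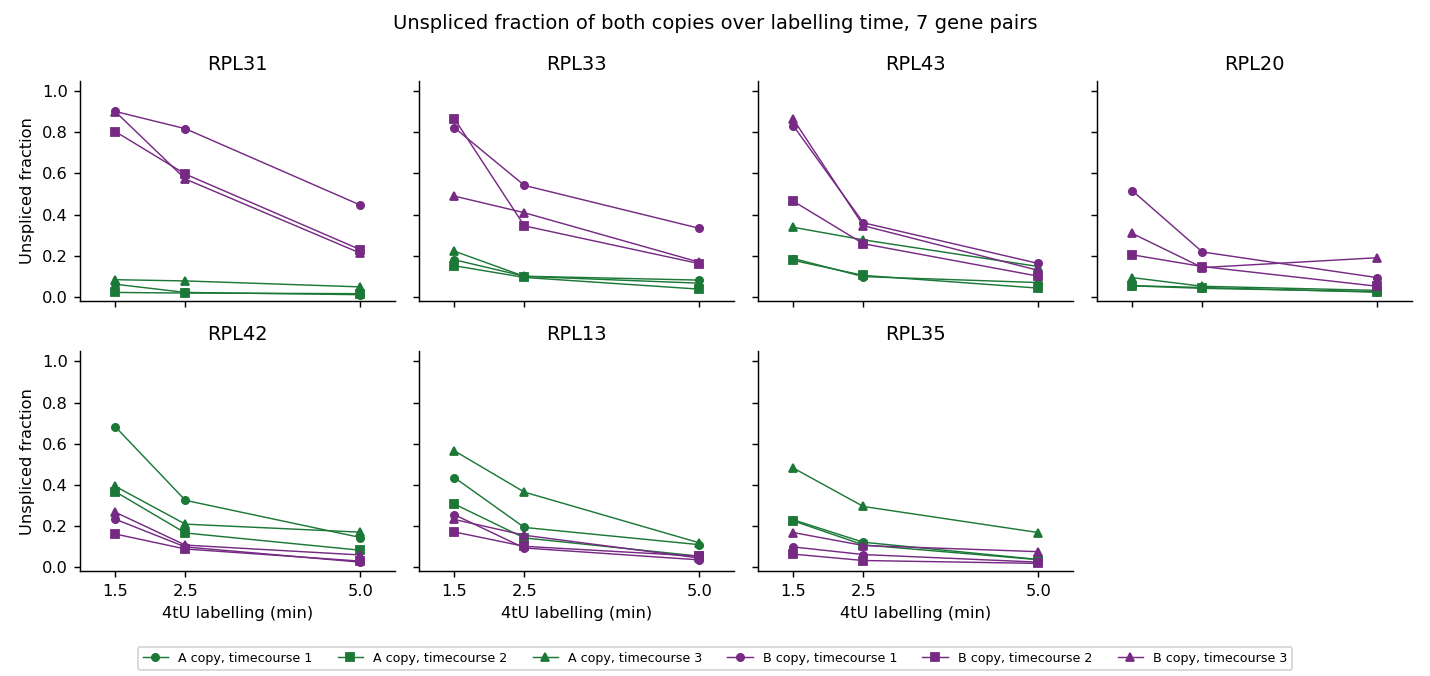
Unspliced fraction (y axis) against labelling time in minutes (x axis) for the A copy (green) and the B copy (purple) of 7 pairs with called differences at 1.5 min; each line is 1 timecourse. The absolute difference between the copies of RPL31, RPL33 and RPL43 is smaller at 5 min than at 1.5 min, with A minus B at −0.271 in RPL31.

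The unspliced fraction followed few of the deposited intron features. Across the 42 members with features, Spearman's rho with the mean unspliced fraction at 1.5 min was −0.02 for intron length, −0.04 for the branch point to 3′ site distance, −0.12 for the 5′ site score, 0.23 for the branch point score and 0.07 for the 3′ site score. It was −0.55 (Pearson's r −0.44) for the predicted folding energy per base, where a lower energy means a more stable fold, and 0.38 (r 0.52) for the share of U. RPL28 had the lowest energy per base, −0.266, and RPL31B, at −0.234, was lower than RPL31A, at −0.161. RPL2A went the other way, with the highest energy per base, −0.117, and the highest unspliced fraction, and it also had the highest share of U, 0.415. RPL2B was at −0.191, above RPL36A at −0.198 and RPL35B at −0.196, which were far less unspliced. Within pairs the more unspliced copy had the higher energy per base in 10 of 19, the longer intron in 8 of the 18 that differ in length and the higher 5′ site score in 8 of the 18 that differ in it. RNA with more U can take up more 4tU, and its part in these values was not tested.

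Counts per gene, scaled by TMM, set the members against the bulk of features in new and total RNA. The members' unscaled share of all counts was 0.914%, 0.929% and 0.886% at 1.5 min and 0.779%, 1.14% and 0.532% in total RNA, and these groups overlapped. In 33 of 43 members the TMM-scaled count was lower at 1.5 min than in total RNA (edgeR's quasi-likelihood test with Benjamini-Hochberg adjustment over 11513 features), against 11.4% of all features, and none was higher, against 6.71%. At 2.5 and 5 min 32 and 31 were lower, against 10.2% and 8.47%, and again none was higher, against 4.86% and 3.26%. The median log2 fold change of the members at 1.5 min was −1.89, beside 0.03 over all features, −2.02 in the 35 RPS genes with introns (29 lower, 1 higher) and −2.40 in the 24 RPL genes that are not in the intron table (21 lower). When only library sizes were scaled, the median of all features moved to 1.97 and that of the members to 0.01; then 4 members were called higher, against 57.2% of all features, and 1 lower, against 0.782%. The counts at 1.5 min fell to 8 calls without timecourse 1 and to 0 without timecourse 2, with median log2 fold changes of −1.88 and −1.56.

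The counts may take in the intron. From the authors' RPKM, counts divided by a length, that length was closer to the whole gene with its intron than to the exons alone in 42 of 42 members. Its median was 997.5 bases, against 857.5 for the whole gene and 414 for the exons, so it matched neither. The length does not show which reads were counted. Whether an unspliced transcript adds intron reads to its gene's count was not tested. Across the 43 members the log2 fold change of 1.5 min against total RNA and the unspliced fraction at 1.5 min had a rho of 0.53 (Pearson's r 0.62). Both measures come from the same libraries and may both hold intron reads, and the part this plays was not tested.

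The lowest log2 fold changes were in RPL13B, RPL33A and RPL20A. RPL13B had 67.6, 65.7 and 53.8 CPM at 1.5 min and 401, 607 and 589 in total RNA, a log2 fold change of −3.09 ± 0.34 (SE, edgeR adjusted p = 0.000402). RPL33A had 82.8, 70.1 and 71.9 CPM against 601, 838 and 344 (−2.99 ± 0.40), and RPL20A 45.9, 57.2 and 46.0 against 300.2, 436 and 289.9 (−2.78 ± 0.33). The groups did not overlap in any of the 3; without timecourse 2 all 3 had an adjusted p of 0.0585, with log2 fold changes of −2.61 or lower.

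The highest were in RPL18B, RPL31B and RPL14B, which are all among the 6 members with the highest unspliced fractions and none of which passed the test. RPL18B had 194, 89.9 and 108 CPM at 1.5 min and 92.0, 117 and 92.0 in total RNA (log2 fold change 0.38 ± 0.36, adjusted p = 0.471). RPL31B had 142, 117 and 132 CPM against 73.9, 155 and 119 (0.17 ± 0.29, adjusted p = 0.696). RPL14B had 173, 130 and 134 CPM against 118, 138 and 331 (−0.43 ± 0.37, adjusted p = 0.428), and 0.19 without total RNA library 3. The groups overlapped in each of them. When only library sizes were scaled, RPL14B stood at 1.68 on the log2 scale, below the shift of 1.97 in all features, and RPL18B at 2.28 and RPL31B at 2.09, above it.

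**Figure D4:**
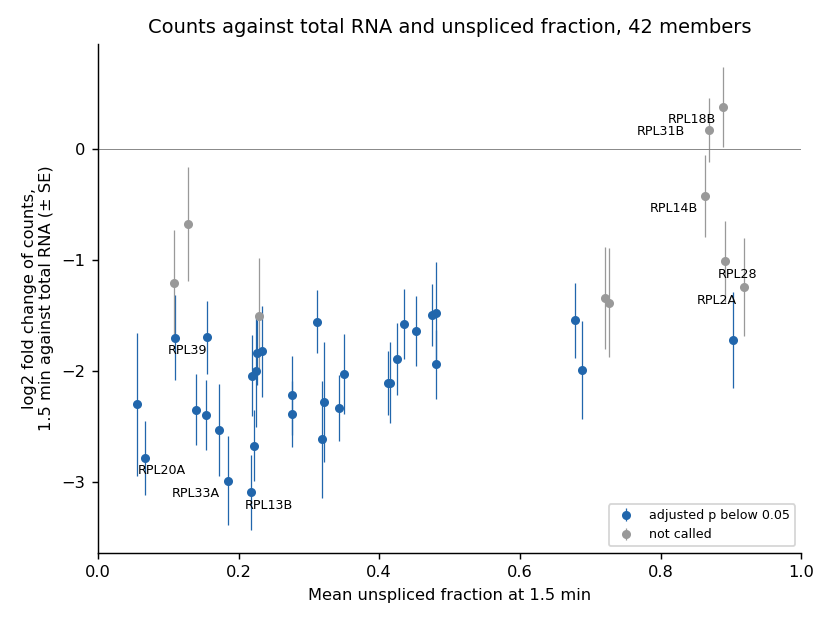
Log2 fold change of counts, 1.5 min against total RNA (y axis, TMM scaling, bars are the SE), against the mean unspliced fraction at 1.5 min (x axis, n = 3) for 42 of the 43 members; blue points passed the edgeR test at an adjusted p below 0.05. RPL18B, RPL31B and RPL14B are the 3 highest points and lie at unspliced fractions over 0.8.

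Between 5 and 1.5 min no member's count changed by edgeR (6 at an unadjusted p below 0.05) or by DESeq2, against 0% of all features. Against the label-free libraries, 10 members were lower at 1.5 min, against 3.35% of all features, and none higher, against 1.44%. The direction turned when only library sizes were scaled, with 14 members higher, against 51.4% of all features, and none lower. With its own scaling DESeq2 called 21 lower, and the TMM-scaled edgeR count was 0 without timecourse 1 or without timecourse 2. The label-free libraries held little intron by the median over 42 members. That median ratio of intron to second exon was 0.530, 0.260 and 0.137 at 1.5, 2.5 and 5 min. It was 0.0138 in total RNA and 0.0220 without label. RPL14A had the highest ratio without label, 1.74, and stood at 0.557 in total RNA.

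The balance of the copies was compared between new and total RNA. The log2 ratio of the A over the B copy differed between 1.5 min and total RNA in 6 of 20 pairs (limma, adjusted over 57 RP pairs), against 35.1% of all RP pairs, and in 9 with the replicate block. In 16 of the 20 pairs the copy that was more unspliced at 1.5 min was the one with the higher share of the pair's counts there than in total RNA. From the second exon alone, which holds no intron but has 1 value per group, this was so in 13 of 19 pairs. No pair was called without timecourse 1 or without timecourse 2, and 9 were called without total RNA library 3.

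The ratio of RPL33 and RPL14 was lower in new RNA than in total RNA, that is, moved towards the B copy, although the A copy of RPL33 had the higher count in every 1.5 min library. For RPL33 the log2 ratio was 0.49, 0.19 and 0.24 at 1.5 min and 3.54, 2.23 and 0.50 in total RNA, a change of −1.79 ± 0.59 (SE, limma adjusted p = 0.033; −2.58 without total RNA library 3). For RPL14 it was −0.21, −0.62 and 0.38 against 1.71, 1.26 and 1.46 (−1.63 ± 0.31, adjusted p = 0.00165). The second-exon change was −1.56 for RPL14, close to that of the counts, but −0.55 for RPL33. The groups of neither pair overlapped.

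The ratio of RPL36 and RPL13 was higher in new RNA than in total RNA, although the B copy of RPL36 kept the higher count in every 1.5 min library. For RPL36 the log2 ratio was −1.09, −1.33 and −0.77 at 1.5 min and −2.15, −2.38 and −3.33 in total RNA, a change of 1.55 ± 0.40 (SE, limma adjusted p = 0.00916; 1.20 without total RNA library 3). RPL36B, whose share of the pair was lower at 1.5 min, was the more unspliced at 1.5 min, at 0.263, 0.169 and 0.243 against 0.146, 0.114 and 0.126 for RPL36A. For RPL13 the ratio was 1.40, 0.55 and 1.08 against −0.09, −0.86 and −0.39 (1.46 ± 0.34, adjusted p = 0.0063). The second-exon changes were 1.39 for RPL36 and 1.24 for RPL13, and neither pair's groups overlapped.

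**Figure D5:**
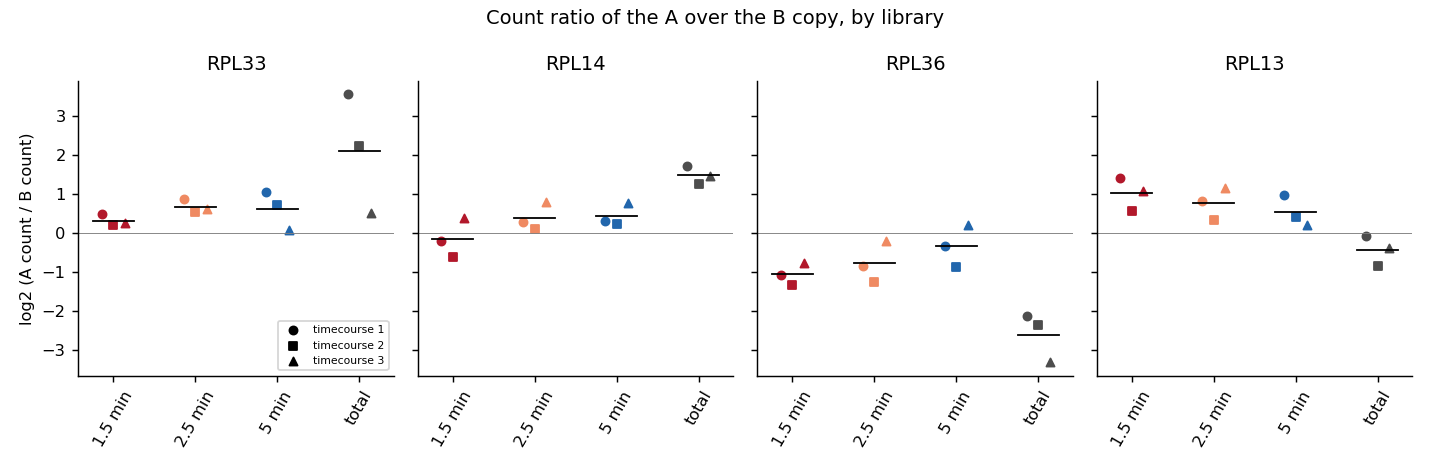
Log2 ratio of the A over the B count (y axis) in each library of the 3 labelling times and total RNA (x axis) for 4 pairs with a called change between 1.5 min and total RNA; symbols mark the timecourse and bars the mean of 3. RPL36 moves from −2.62 in total RNA to −1.06 at 1.5 min, and in RPL33 total RNA library 3, at 0.50, lies apart from the other 2.

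At 5 min 2 of 20 pairs still differed from total RNA, against 17.5% of all RP pairs: RPL36 (2.27 ± 0.40, adjusted p = 0.00224; 1.92 without total RNA library 3) and RPL14 (−1.05 ± 0.31, adjusted p = 0.0337). With the replicate block 7 pairs were called, and 8 without total RNA library 3; without timecourse 1, 2 and 3 there were 0, 1 and 8. Between 5 and 1.5 min none of the 20 was called by limma, against 0% of all RP pairs, with 0 at an unadjusted p below 0.05. RPL31 nonetheless stood at 0.42, 0.88 and 0.70 at 5 min, above all its 1.5 min libraries. Its change was 1.60 ± 0.73 (SE, limma adjusted p = 0.494). That fit also holds the total RNA libraries, whose spread for RPL31 (SD 1.98) enters the SE, and it was not run without total RNA library 3. RPL31, whose copies differed most in splicing, had a log2 ratio of −1.14, −0.64 and −1.02 at 1.5 min and 2.32, 1.93 and −1.28 in total RNA, a change of −1.92 ± 0.73, which missed the threshold (adjusted p = 0.0567) and was −3.06 without total RNA library 3 (adjusted p = 3.12e-06). From the second exon alone its change was −0.91, and the log2 ratio at 1.5 min was 1.68, so its sign there was opposite to that of the counts, which may take in the intron. It was named after its values were seen. The sources used here do not say how the authors treated reads that match both copies, so the split of counts between copies is uncertain, most in RPL35, whose coding sequences are 99.2% identical. The same limit holds for the exon reads behind each copy's unspliced fraction. Its part in the differences in unspliced fraction between copies, that of RPL35 included, was not tested.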

How the data were processed

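RNA of 14 yeast libraries in 5 groups was measured by sequencing after 4tU capture or rRNA depletion. The members and the comparison lists were chosen with earlier results of these data known. The submitters' processing notes list STAR 2.4.2a and build R64 without saying what each was used for; the sources used here give no counter, strand setting or handling of multi-mapped reads. Whole-number counts per feature were deposited by the authors, not normalised, per the file headers, and 100 duplicate rows of 12549 were dropped. The authors' RPKM served only to read the feature length. The fraction per intron, with its reads, is deposited as a ratio per the file headers and was read as the spliced fraction because it rises with labelling time; how it was estimated is not stated. Motif scores, the area under the splicing curve, lengths, folding energies and segment values (a score of arbitrary scale) are the authors' deposited values, and the deposited fraction of U is per intron. Another 23 per-sample columns (RPKM, intervals) were not used.

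Counts were fitted with edgeR 4.0.16 in R 4.3.3 (filterByExpr minimum count 10, TMM, quasi-likelihood F test), over the 4 groups without the label-free libraries or over all 5. Unspliced fractions were fitted with limma 3.58.1 over 187 introns, A minus B differences over 40 RP pairs, and log2((A + 0.5)/(B + 0.5)) over 57 RP pairs with a mean count of at least 10. DESeq2 1.42.0 was an alternative, with other scalings, filters and left-out libraries. Scripts were tested on simulated data. The adjusted p threshold was 0.05 throughout. The label-free columns name no timecourse, 1 of these samples has a conflicting source label (the title set its group), and both stayed in fits that left out a timecourse.

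The timecourse numbers in the labels pair the samples: same-numbered libraries deviated together from their group means, with correlations of 0.217 to 0.524 over 9 pairs of libraries for unspliced fractions and 0.278 to 0.903 over 18 pairs for counts. Genes given with values were the pairs called for splicing (at most 8) or for count ratio (at most 5), the 4 highest and 4 lowest members at 1.5 min, the 3 largest and 3 smallest falls, the single-copy genes, and the 3 lowest and 3 highest log2 fold changes. One gene, and the results of its pair, is not reported here, though it stays in the fits and counts. Total counts per library limit the precision of low counts; the lowest member count was 68.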

Additional observations from a re-analysis of the deposited data

Results flagged for a closer look

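The difference between copies changed between 1.5 and 5 min of labelling in 3 pairs, by the test of that change (limma over 40 RP pairs). The A minus B difference in unspliced fraction moved by 0.543 ± 0.0912 in RPL31 (SE, adjusted p = 0.00476), by 0.383 ± 0.114 in RPL33 (adjusted p = 0.0408) and by 0.443 ± 0.0911 in RPL43 (adjusted p = 0.0104). Each rose from a negative value in all 3 timecourses. In timecourse 3 RPL43 passed 0, from −0.526 at 1.5 min to 0.019 at 5 min. The A copies of RPL31 and RPL33 stood at means of 0.055 and 0.184 at 1.5 min. No group had 4 or more libraries, so no single library could be tested as standing apart.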

How the results depend on the processing

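Abundance counts against total RNA turned with the scaling: with library size only, 5 members were called at 1.5 min (4 higher), 3 at 2.5 min and 4 at 5 min (all higher), and 14 against the label-free libraries (all higher, where the main result has 10 lower), and RPL14B stood at 1.68 against total RNA. DESeq2 called 21 against the label-free libraries, all lower. Without 1 timecourse the calls ranged from 0 to 37 at 1.5 min, 0 to 35 at 2.5 min, 0 to 31 at 5 min and 0 to 10 against label-free. RPL14B turned to 0.24 without timecourse 3 and 0.19 without total RNA library 3 (lowest −0.68, without total RNA library 1), and RPL31B to −0.0316 without timecourse 1 and −0.0651 without total RNA library 1 (0.435 without total RNA library 2). Unspliced fraction calls from 1.5 to 2.5 min (5 in the main result) were 1 on the arcsine square root scale, 12 with the replicate block and 11 with at least 500 reads per library (an alternative chosen after seeing the data; fewer introns tested), and 0 to 1 without a timecourse. From 2.5 to 5 min the replicate block called 5, and from 1.5 to 5 min 4, 17 and 18 were called without timecourse 1, 2 and 3. Pair calls without a timecourse were 3 to 8 at 1.5 min, 0 to 2 at 2.5 min, 0 to 1 at 5 min and 1 to 3 for the change (a comparison added after seeing the data), whose block gave 9. On the arcsine scale 7 pairs were called at 2.5 min and 6 at 5 min, and with 500 reads 1 at 2.5 min. Count-ratio calls against total RNA without a timecourse or total RNA library 3 were 0 to 9 at 1.5 min and 0 to 8 at 5 min, 7 with the block, and 0 to 1 from 1.5 to 5 min. The cause of these changes was not tested. The replicate block moved no other count by over 1.5 times. Of the named genes' and pairs' values, 179 kept direction and call, 33 lost the call, 6 gained it and 5 turned. Every fraction rests on at least 228 reads, so the 20-read minimum removed none; fits without a timecourse hold 2 libraries a group.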
